A study of Mus musculus with 19 samples.

Results

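The genes described here are 10 cytosolic glutathione S-transferases of the mouse: Gstp1 of the pi class, Gstm1, Gstm2, Gstm3, Gstm4 and Gstm6 of the mu class, Gsta2, Gsta3 and Gsta4 of the alpha class, and Gstt1 of the theta class. They were chosen by name, with earlier results of these data known. The probes are all those whose only gene symbol in the platform annotation is one of these. That gave 17 of the 14737 probes with 1 gene symbol, on an array of 45281 probes. The 17 probes belong to 9 of the 10 genes, and Gstm3 is not analysed here because none of the named probes carries its symbol. All 17 passed the filter on dim probes, which kept a probe if 5 or more arrays detected it (detection p below 0.05) and left 14295 probes in all. The annotation names only probes of the authors' deposited log2 table, each detected at p below 0.01 on at least 1 array. The 17 were thus already chosen for detection, and a Gstm3 probe outside that table would carry no symbol here.

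Glutathione S-transferases join the thiol of glutathione to electrophiles such as drug metabolites, epoxides and the aldehydes of lipid peroxidation, and so make them more soluble. Alpha, mu and pi enzymes are abundant in mouse liver, where some are induced by the stress sensor NRF2 and by the drug receptors CAR and PXR, and where Gstp1 is known for a higher level in males than in females. Glutathione takes its cysteine partly from methionine, by way of S-adenosylmethionine (SAMe), the product of the liver enzyme encoded by Mat1a.

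Liver RNA came from 19 mice aged 10 months. The groups were 8 Mat1a wild-type mice given placebo (WT placebo), 6 Mat1a knockout mice given placebo (KO placebo) and 5 Mat1a knockout mice given SAMe (KO SAMe), with 8 weeks of treatment. No SAMe-treated WT group is among the samples, so what SAMe does in WT liver was not measured. The labels name neither the sex of the mice nor the design of the Mat1a allele, and 1 array was made per animal.

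The values are log2 intensities of single-colour Illumina BeadChips, on which labelled RNA binds to gene-specific probes on beads. Per array, 25.5% to 31.8% of the probes gave a signal above background, and having 19 arrays sets how precise any value can be. Mat1a read 12.12 ± 0.14 (SD, n = 8) in WT placebo, 9.52 ± 0.31 (SD, n = 6) in KO placebo and 9.64 ± 0.12 (SD, n = 5) in KO SAMe livers, on the side its labels give. In 5 arrays the median raw signal lay above 90 (93.6 to 99.97, called high-background here), and they were KO placebo replicates 1 to 4 and WT placebo replicate 1. The 4 KO placebo arrays also have animal IDs ending in J, as no other array has. Within KO placebo the background and the letter thus cannot be told apart. All WT arrays have IDs ending in K and the other KO placebo arrays in G, so between WT and KO placebo the letter runs with genotype. A fit with the letter joins these groups only through KO SAMe arrays of letters G and K. The Y-linked gene Eif2s3y was detected on all 19 arrays at 1 of its 2 probes.

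In Mat1a knockout livers Gstp1 fell 3.21-fold, while Gsta2 and the mu class genes Gstm1, Gstm2 and Gstm4 rose, and Gsta4 fell. Gstm6, Gsta3 and Gstt1 did not pass the test. Counted by the brightest probe of each gene, 6 of 9 genes passed, 4 higher and 2 lower, against 38.9% of all probes tested (19.5% higher and 19.4% lower). By probe, 10 of 17 passed. The median log2 change was 0.09 over the 9 genes and 0.01 over all probes tested, and the median size of the change was 0.67 against 0.22. The groups of arrays did not overlap for 3 of the 9 genes (Gstp1, Gstm1 and Gstm2), against 15.7% of all probes. At least 2-fold changes passed for 3 (Gstp1, Gstm2 and Gsta2), against 4.98%, though that of Gsta2 depended on the background correction. A change passed at a Benjamini-Hochberg adjusted p under 0.05 over all 14295 probes, from limma on all 19 arrays, and values are given as log2 normalized intensity, compared within a probe and never between probes. With each array scaled to the median of all its probes, all probes past the test split into 5361 higher and 1215 lower, and with the median of the filtered probes into 2285 and 5868, against 2787 and 2777 here. The 6 genes kept their directions under both scalings, and relative to the shifted median of all probes the Gstp1 change was -1.87 and that of Gstm2 1.02. In low-background arrays alone, with 2 KO placebo livers, 4 of the 6 passed, and with the ID letter in the fit 1 did (Gstp1), as did 63 of all probes tested. WT and KO placebo arrays share no letter, so the arrays of these groups alone cannot separate letter from genotype.

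**Figure D1:**
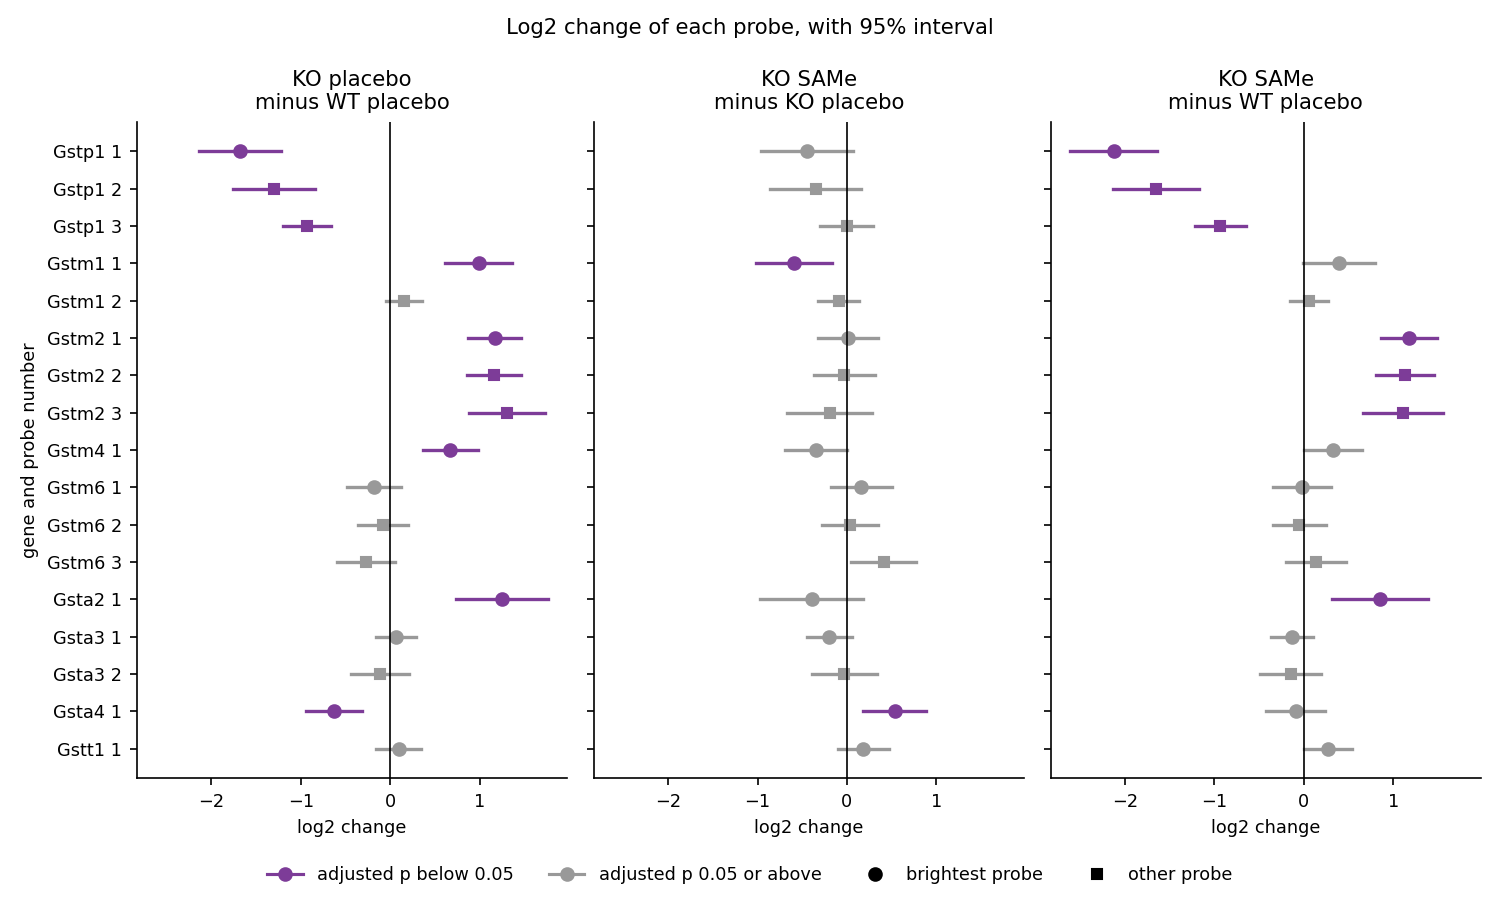
Log2 change (x axis) of each of the 17 probes (y axis) in the 3 comparisons, with its 95% interval from the limma fit. Purple marks an adjusted p below 0.05, circles the brightest probe of a gene and squares the others. The 3 Gstp1 probes lie left of 0 and the 3 Gstm2 probes right of 0 in both comparisons with WT, and 2 probes pass where KO SAMe is set against KO placebo.

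Gstp1, the pi class enzyme, was the member that fell most. Its brightest probe (ILMN_2677046) read 12.17 at the lowest, 12.44 at the median and 12.66 at the highest in the 8 WT livers. In the 6 KO placebo livers it read 10.21, 10.71 and 11.32. Every KO placebo liver was below every WT liver. The log2 change was -1.68 (SE 0.22, 95% interval -2.14 to -1.22, limma adjusted p = 4.34e-06), a level 3.21-fold lower. The second probe gave -1.30 (adjusted p = 7.05e-05), again with no overlap of the groups. The third probe was dim, with a signal above background on 8 of 8 WT but 3 of 6 KO placebo arrays, so that its change of -0.93 (adjusted p = 6.82e-06) is set against a group near the background and was -0.31 with the authors' deposited log2 values. The brightest probe passed in every alternative setting tried, with the change between -2.24 and -1.30.

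Gstp1 is on chromosome 19 beside its relatives Gstp2 and Gstp3, and a probe for 1 of them may bind RNA of another. The probes named for the relatives did not pass: Gstp2 gave 0.12 (adjusted p = 0.799) and Gstp3 0.23 (adjusted p = 0.406). Gstp3 was higher in KO SAMe than in WT livers, by 0.72 (adjusted p = 0.0246). Gstp1 moved beside a set of genes known to differ between the sexes in mouse liver. Of 26 listed male-biased genes 20 were measured, and 12 were lower and 3 higher in KO placebo livers. Of 24 listed female-biased genes 9 were measured, and 5 were higher and 0 lower. Of all probes 19.4% were lower and 19.5% higher. A gene near background in WT could pass the filter through the KO arrays and could then hardly be lower, so the filter may have shaped the female-biased count. With the ID letter in the fit, 1 of the 20 and 3 of the 9 passed. Hsd3b5, a male-biased steroid dehydrogenase, changed by -5.36 (adjusted p = 7.64e-07), and Cyp2b9, a female-biased cytochrome P450, by 6.24 (adjusted p = 4.33e-16). The part of that shift in the Gstp1 change was not tested.

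The RefSeq promoter window of Gstp1 (GRCm38.p6, chr19:4037863-4038162, minus strand, 250 bases before to 50 after the start) is shown because this gene carries the largest fall. The letters TGAGTCA, the sequence bound by AP-1 factors and part of many electrophile response elements, were searched on both strands after the sequences had been seen, and are in capitals. They lie at bases -74 to -68 from the start and are found in 5.2% of 32851 windows of this length. The match is a description of the letters only.
Gstp1: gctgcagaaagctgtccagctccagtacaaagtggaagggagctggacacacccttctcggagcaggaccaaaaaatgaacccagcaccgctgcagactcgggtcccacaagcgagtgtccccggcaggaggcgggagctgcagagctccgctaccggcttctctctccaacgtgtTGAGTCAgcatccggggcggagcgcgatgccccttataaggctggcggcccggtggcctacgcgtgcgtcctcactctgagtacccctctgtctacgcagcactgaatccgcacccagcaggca

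Of the mu class genes, which lie next to each other on chromosome 3 in the order Gstm6, Gstm3, Gstm2, Gstm1 and Gstm4, 3 of the 4 measured rose. The brightest probe of Gstm2 (ILMN_2624854) read 9.45, 10.13 and 10.45 (lowest, median, highest) in WT livers and 10.93, 11.24 and 11.57 in KO placebo livers. No KO placebo liver was as low as any WT liver. The log2 change was 1.17 (SE 0.14, limma adjusted p = 1.89e-06), and the other 2 probes gave 1.16 and 1.30, also without overlap. Without the high-background arrays, or with the background set in the fit, Gstm2 still passed.

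Gstm1, the main mu class enzyme of mouse liver, read 8.76, 9.44 and 10.14 in WT livers and 10.19, 10.34 and 10.74 in KO placebo livers at its brightest probe (ILMN_1228233). The highest WT liver was just below the lowest KO placebo liver. The change was 0.99 (SE 0.18, adjusted p = 1.69e-04), with a wider spread in WT (SD 0.50) than in KO placebo livers (SD 0.20). A second Gstm1 probe was close to the background, detected on 2 of 8 WT, 5 of 6 KO placebo and 1 of 5 KO SAMe arrays, and gave 0.15 (adjusted p = 0.241).

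Gstm4 was dimmer, at 5.71, 6.06 and 6.41 in WT and 6.34, 6.72 and 7.13 in KO placebo livers. The groups overlapped, and 4 of 6 KO placebo livers were above all WT livers. The change was 0.67 (SE 0.15, adjusted p = 9.63e-04). The 4 high-background KO placebo arrays had a mean of 6.90 and the other 2 of 6.36, against 6.04 in the 7 low-background WT arrays, and in low-background arrays alone the change was 0.32 (adjusted p = 0.321). Gstm6 did not pass at any of its 3 probes, whose changes were -0.18, -0.08 and -0.27. Its WT and KO placebo livers overlapped at all 3 probes.

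The windows of Gstm1 and Gstm2 are shown because these neighbours rose together, beside that of Gsta2, which rose on another chromosome. Gstm1 has a pair of windows and the second is printed (chr3:108017769-108018068, minus strand), with Gstm2 at chr3:107986371-107986670 and Gsta2 at chr9:78347096-78347395, both minus strand, all GRCm38.p6 from RefSeq. Capitals mark AGGTCA, a core motif of many nuclear receptors, which is found in 16.3% of all windows. It lies at bases -5 to 1 of the Gstm1 window, and neither the Gstm2 nor the Gsta2 window holds any of the 4 motifs searched.
Gstm1: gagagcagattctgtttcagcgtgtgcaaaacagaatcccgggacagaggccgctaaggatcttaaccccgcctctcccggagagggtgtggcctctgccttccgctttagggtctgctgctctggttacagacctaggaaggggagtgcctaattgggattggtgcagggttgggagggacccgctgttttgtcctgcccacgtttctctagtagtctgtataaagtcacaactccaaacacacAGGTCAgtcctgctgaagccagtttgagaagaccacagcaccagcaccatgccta
Gstm2: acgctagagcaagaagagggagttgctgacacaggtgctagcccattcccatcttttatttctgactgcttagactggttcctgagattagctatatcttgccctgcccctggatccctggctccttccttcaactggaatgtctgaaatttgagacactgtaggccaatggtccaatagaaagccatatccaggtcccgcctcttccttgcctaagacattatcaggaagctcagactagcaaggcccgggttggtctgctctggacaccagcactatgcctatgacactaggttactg
Gsta2: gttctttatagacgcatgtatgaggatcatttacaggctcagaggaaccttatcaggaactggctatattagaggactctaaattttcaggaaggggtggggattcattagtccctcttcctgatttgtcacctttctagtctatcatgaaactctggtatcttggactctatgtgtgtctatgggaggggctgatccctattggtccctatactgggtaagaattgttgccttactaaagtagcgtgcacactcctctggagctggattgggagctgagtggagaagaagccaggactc

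The motifs TGACNNNGC (the core of an antioxidant response element), TTCNNNGAA (a STAT5 site), AGGTCA and TGAGTCA were searched on both strands in the 13 windows of the 9 listed genes that have one. No window was found for Gsta4. Besides those above, TGACNNNGC was found in the Gsta3 window at -121 to -113, as it is in 12.4% of all windows, and TTCNNNGAA in the third Gstm6 window at -128 to -120, as in 8.3%. Each motif was thus in 1 of the 13 windows, and the longest stretch identical between windows of different genes was 16 bases, in Gstm1 and Gstm3:
tgagaagaccacagca

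Among the alpha class genes, Gsta2, an enzyme known as inducible in mouse liver, rose from a low level. It read 4.66, 4.94 and 5.29 (lowest, median, highest) in WT and 5.20, 6.21 and 7.24 in KO placebo livers. KO placebo replicate 1, at 5.20, was the only liver of its group within the WT range. The change was 1.25 (SE 0.25, adjusted p = 3.29e-04). Its size depended on the background correction, since the signal was dim: it was 0.76 with an offset of 50 and 0.56 with the authors' deposited log2 values, past the test in both. Gsta1, its neighbour on chromosome 9, rose by 1.39 (adjusted p = 0.004), and a probe for either may bind RNA of the other.

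Gsta4, the enzyme known for its activity on 4-hydroxynonenal, an aldehyde of lipid peroxidation, lies on the same chromosome and moved the other way. It read 8.999, 9.48 and 9.67 in WT and 8.09, 8.996 and 9.08 in KO placebo livers. The groups overlapped at the lower end of WT, and 3 of 6 KO placebo livers were below all WT livers. The change was -0.63 (SE 0.15, adjusted p = 0.00218). KO placebo replicate 1 was the lowest of all arrays, and without it the change was -0.48. In low-background arrays alone it was -0.37 (adjusted p = 0.211).

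Gsta3, a brightly measured alpha class enzyme, gave 0.06 (adjusted p = 0.68) at its brighter probe and -0.12 (adjusted p = 0.613) at the second. Its KO placebo livers followed the background set: at the second probe the 4 high-background arrays read 8.89 to 9.11 and the other 2 read 7.97 and 8.23, against 8.57 to 8.89 in the low-background WT arrays. With the background set in the fit this probe changed by -0.54 (adjusted p = 1.49e-04). Gstt1, a theta class enzyme that also acts on small halogenated compounds, read 10.02 to 10.73 in WT and 10.31 to 10.68 in KO placebo livers, a change of 0.09 (adjusted p = 0.602).

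**Figure D2:**
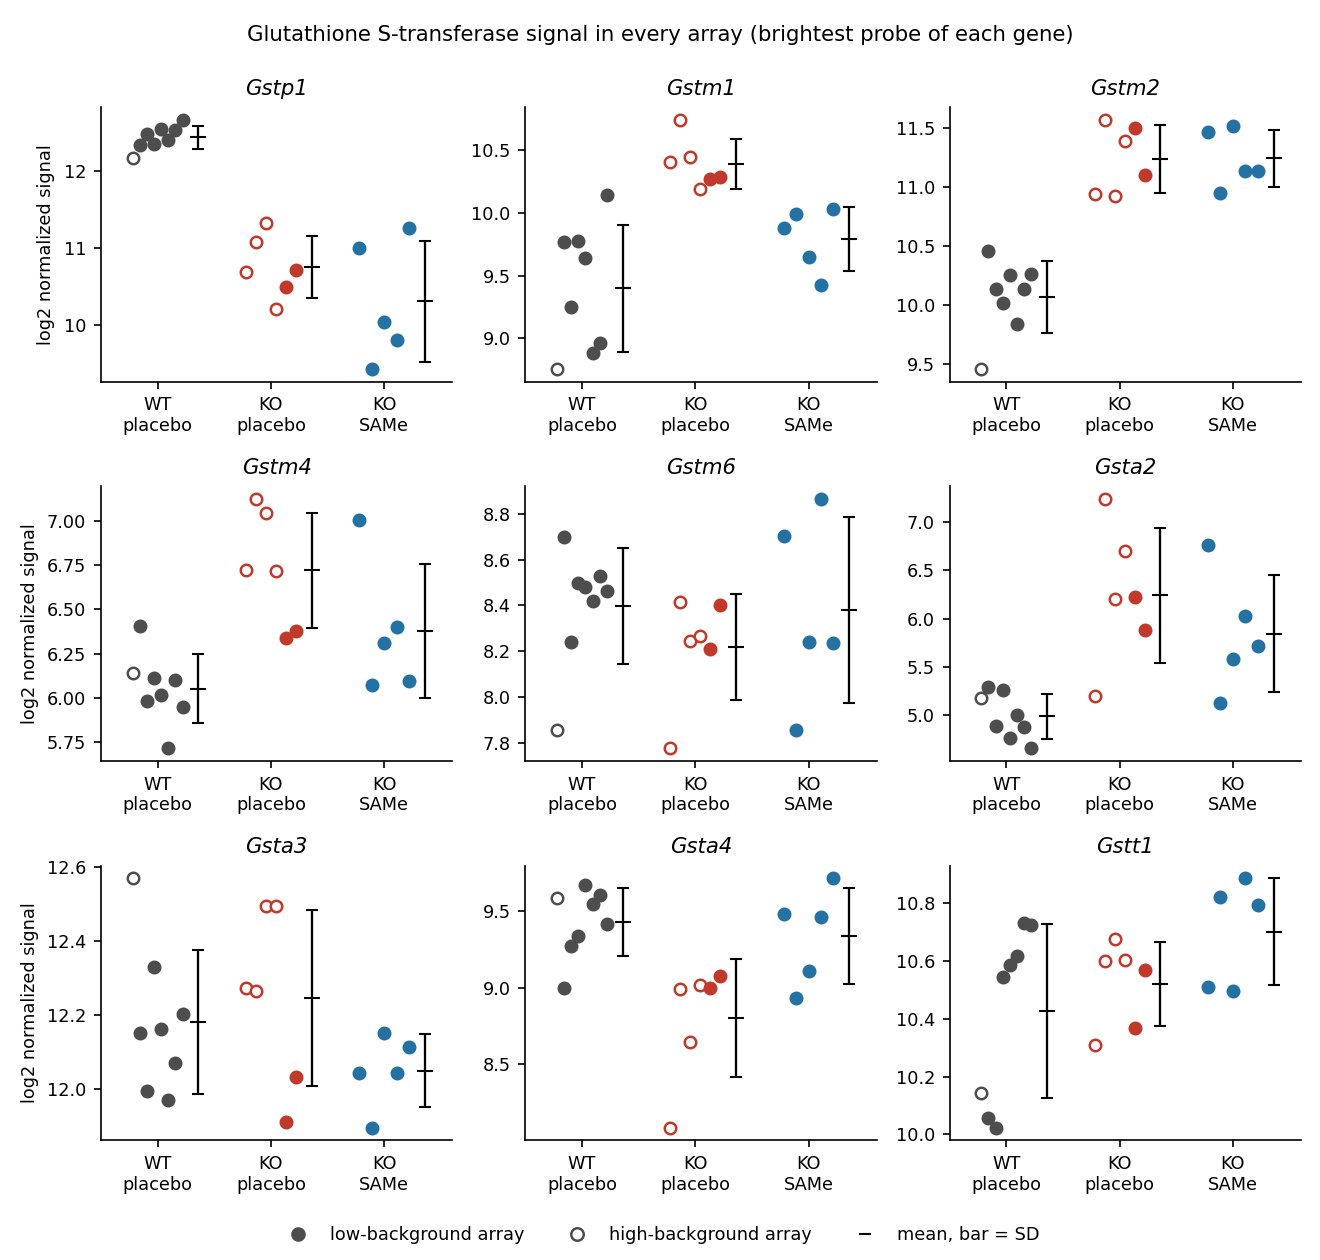
Log2 normalized signal (y axis) of the brightest probe of each of the 9 genes in every array of the 3 groups (x axis). Each dot is 1 liver, open dots are high-background arrays, and the bar beside each group is the mean with its SD (n = 8, 6 and 5). Gstp1 separates WT from both KO groups downwards and Gstm2 upwards, while Gsta3 and Gstm6 overlap in all groups.

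Between KO SAMe and KO placebo livers 2 of 9 genes passed, Gstm1 lower and Gsta4 higher, against 17.2% of all probes (9.5% higher and 7.67% lower). The groups did not overlap for 1 gene, Gstm1, against 8.51% of all probes, and no gene changed at least 2-fold, against 0.93%. The median log2 change was -0.20 over the 9 genes and -0.01 over all probes. All probes past the test split into 1358 higher and 1097 lower, and into 230 and 4241, or 3236 and 1166, when scaled to the median of all or of the filtered probes.

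Gstm1 read 9.88, 9.99, 9.65, 9.42 and 10.03 in KO SAMe replicates 1 to 5, all below the lowest KO placebo liver at 10.19 and all within the WT range. The change against KO placebo was -0.59 (SE 0.20, adjusted p = 0.0481), close to the threshold. It passed in 4 of 26 alternative settings, and leaving out any 1 liver of either group raised the adjusted p to between 0.0502 and 0.132. With the background set in the fit the change was -0.72 (adjusted p = 0.0847).

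Gsta4 read 9.48, 8.93, 9.11, 9.46 and 9.71 in the KO SAMe livers, and 4 of 5 were above every KO placebo liver. The change was 0.54 (SE 0.17, adjusted p = 0.0335), and the level in KO SAMe livers differed from WT by -0.09 (adjusted p = 0.769). No KO SAMe array was a high-background array, and with the background set in the fit the change was 0.44 (adjusted p = 0.207). It also failed to pass without KO placebo replicate 1 (0.39, adjusted p = 0.084) or 3, or KO SAMe replicate 1, 4 or 5.

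Gstp1 did not pass the test between KO SAMe and KO placebo livers at any of its 3 probes. The brightest read 11.01, 9.43, 10.04, 9.81 and 11.26 in KO SAMe replicates 1 to 5, with 3 of 5 below every KO placebo liver and 2 near the top of that group. The change against KO placebo was -0.45 (95% interval -0.96 to 0.07, adjusted p = 0.24), and it passed without KO SAMe replicate 5 (-0.68, adjusted p = 0.0474). The second probe gave -0.35 (adjusted p = 0.365), which turned to 0.0539 with the background set in the fit and 0.19 in low-background arrays, and for the third probe, which was dim, the change was -0.0012 (adjusted p = 0.997). Against WT the change of the brightest probe was -2.13 (SE 0.23, adjusted p = 2.67e-06), with no overlap. The spread between livers was SD 0.15 in WT, 0.40 in KO placebo and 0.79 in KO SAMe livers. The 2 KO SAMe livers with ID letter I, replicates 1 and 5, had a mean of 11.13, the 2 with letter K 9.62 and the 1 with letter G 10.04, so the spread within KO SAMe runs with the letter, whose meaning the labels do not give.

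Gstm2 read 11.46, 10.95, 11.52, 11.14 and 11.14 in KO SAMe livers, all above the highest WT liver at 10.45. It differed from KO placebo by 0.01 (95% interval -0.33 to 0.34) and from WT by 1.17 (adjusted p = 1.92e-05). Gsta2 read 6.76, 5.13, 5.59, 6.03 and 5.72, with 4 of 5 above all WT livers. It differed from KO placebo by -0.40 (95% interval -0.97 to 0.18, adjusted p = 0.362) and from WT by 0.85 (SE 0.26, adjusted p = 0.0276), a call lost without KO SAMe replicate 1 (0.63, adjusted p = 0.0871) or 4. With the authors' deposited log2 values, which have no background correction, the Gsta2 change against WT was 0.35 (adjusted p = 0.109).

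Gstm4, at 7.01, 6.07, 6.31, 6.40 and 6.09 in KO SAMe livers, lay between the other groups and differed from neither past the test (-0.35, adjusted p = 0.163, from KO placebo and 0.33, adjusted p = 0.169, from WT). It passed against KO placebo, at -0.50 (adjusted p = 0.0273), without KO SAMe replicate 1, the highest of its group. It also passed there with array weights (-0.45, adjusted p = 0.034) and scaled to the median of all probes (-0.77, adjusted p = 0.00932). Gstt1 read 10.50 to 10.89 in KO SAMe livers, 0.27 above WT (adjusted p = 0.164). Gstm6 and Gsta3 did not pass in either comparison of KO SAMe livers. At the third Gstm6 probe 4 of 5 KO SAMe livers were above every KO placebo liver, a change of 0.41 (adjusted p = 0.112). That change passed without KO SAMe replicate 2 (0.54, adjusted p = 0.0369) and with array weights (0.46, adjusted p = 0.0304).

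Between KO SAMe and WT livers 3 of 9 genes passed (Gstm2 and Gsta2 higher, Gstp1 lower) against 16.2% of all probes (8.42% higher and 7.81% lower). At least 2-fold changes passed for 2, Gstp1 and Gstm2, against 1.69%. The groups did not overlap for Gstp1 and Gstm2, against 5.67% of all probes. The median change was 0.27 over the 9 genes and -0.01 over all probes. The 2 comparisons with KO placebo share the KO placebo arrays and the 2 with WT share the WT arrays, so the values are given side by side and are not independent.

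**Figure D3:**
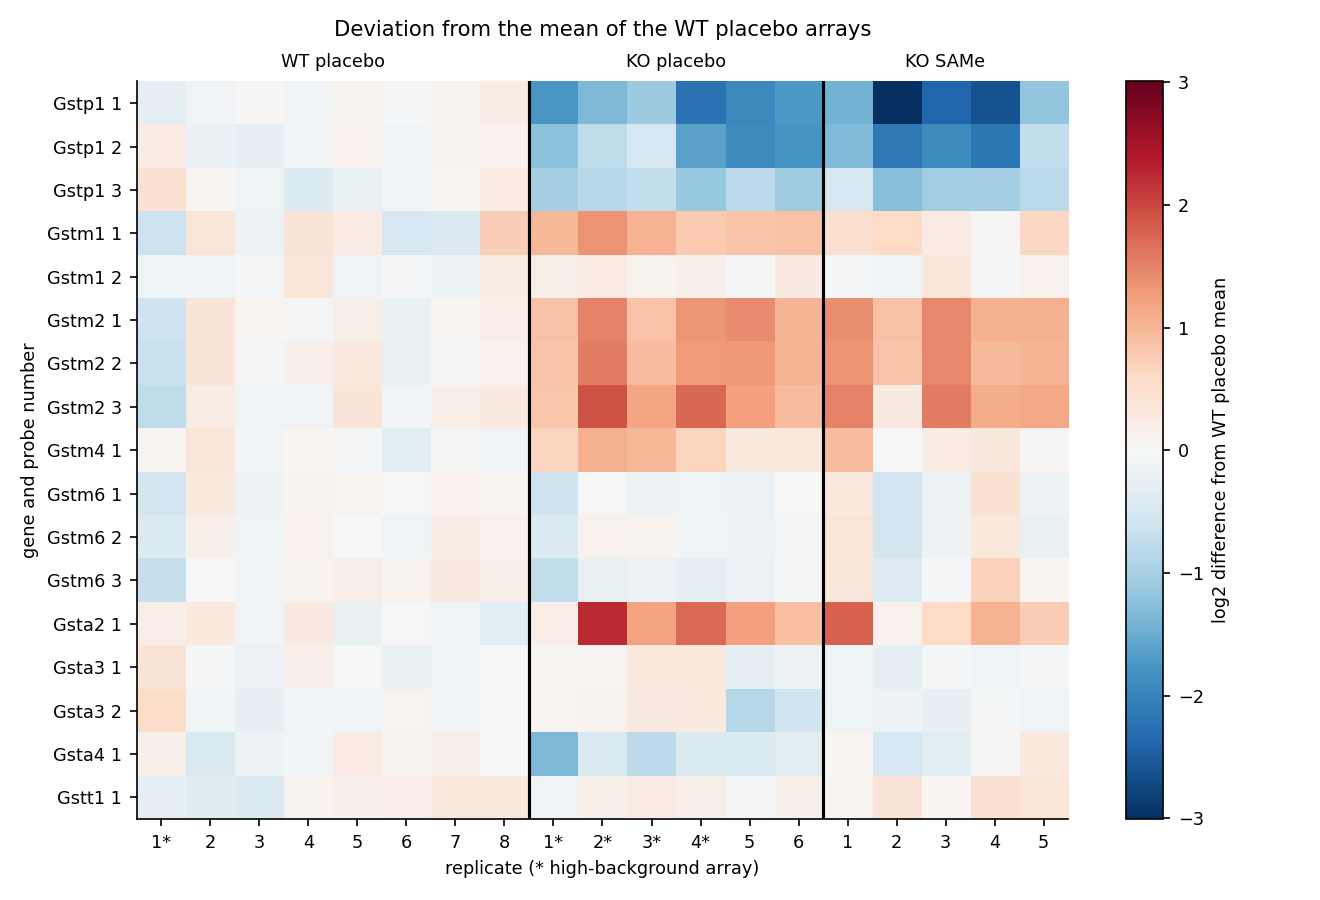
Difference of each of the 19 arrays (x axis, replicate number within group, * high-background) from the mean of the 8 WT arrays for each of the 17 probes (y axis), as log2. Blue is lower and red higher; the 3 Gstp1 rows are blue and the 3 Gstm2 rows red in all KO livers of both treatments, and among the KO livers the Gsta2 row is palest in KO placebo replicate 1 and KO SAMe replicate 2.

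Ordered by mean level, Gstp1 ran WT placebo, KO placebo, KO SAMe, and only the step from WT to KO placebo passed the test. For Gstm2 the order was KO SAMe, KO placebo, WT placebo, and the 2 KO groups did not differ past the test. Gstm1 ran KO placebo, KO SAMe, WT placebo, with the step from KO SAMe to WT at adjusted p = 0.176. Gsta2 had the same order, and there the step from KO placebo to KO SAMe was the one that did not pass. Gsta4 ran WT placebo, KO SAMe, KO placebo, with WT and KO SAMe not differing past the test. Neighbours in the order did not differ past the test at either step for Gstm4, Gstm6, Gsta3 and Gstt1.

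Between probes of 1 gene over the 19 arrays, Pearson's r was 0.95 to 0.99 for the 3 Gstm2 probes, 0.87 to 0.96 for the 3 Gstp1 probes and 0.78 to 0.92 for the 3 Gstm6 probes. It was 0.76 for the 2 Gsta3 probes and 0.55 for the 2 Gstm1 probes, of which the second was near background. Between genes, the highest r was that of Gstm4 with Gsta2 (0.83), and Gstp1 ran against Gstm2 (-0.79). After each group's mean was taken out, these were 0.64 and 0.15, so the opposite course of Gstp1 and Gstm2 is one of the group means. These r are descriptions over 19 arrays that share groups and normalization.

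By the same measure, the genes most like each member over the 19 arrays were named by rule as the top 2 of all other genes outside the family. Gstp1 was most like Ttc39c (r = 0.92) and Pip4p1 (0.92), Gstm1 like H13 (0.96) and Mknk2 (0.94), and Gstm2 like Tmem237 (0.96) and Tceal8 (0.95). Gstm4 was most like Srxn1 (0.87), the NRF2 target sulfiredoxin, and Lgals9 (0.86). For Gsta4 they were Prxl2b (0.91) and Prdx2 (0.91), the peroxidase peroxiredoxin. Gsta2 was most like Slc25a15 (0.88) and Msmo1 (0.86), Gsta3 like Gcgr (0.90) and Ndrg2 (0.88), and Gstt1 like Ankrd40 (0.86) and Gps1 (0.85). Within groups r fell to 0.57 for Ttc39c and 0.30 for Pip4p1 with Gstp1, and was 0.91 for H13 with Gstm1 and 0.83 for Prdx2 with Gsta4. For Gstm6 the highest r was 0.73, with Coq5, followed by 0.72 with Afmid.

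Of 18 further glutathione transferase genes and membrane-bound relatives (MAPEG proteins) on a list, 12 were measured. Against 19.5% higher and 19.4% lower of all probes, 4 of the 12 were higher and 4 lower in KO placebo than in WT livers. Gstt3, a theta class neighbour of Gstt1 on chromosome 10, had the largest rise, by 1.59 (SE 0.19, adjusted p = 1.37e-06). Gstt2, of the same cluster, changed by -1.01 (adjusted p = 0.00215). Gstm5 and Gstk1 were also higher, and Gsto1, Gstz1 and Mgst3 lower. Mgst3, a microsomal member, changed by 0.76 (adjusted p = 0.00629) and Gstz1 by 0.30 (adjusted p = 0.0386) between KO SAMe and KO placebo livers. A second Mgst3 probe did not pass there (0.47, adjusted p = 0.138) or between KO placebo and WT (-0.29, adjusted p = 0.252). For Mgst1 the brighter probe gave -0.0109 (adjusted p = 0.973) and the other -0.465 (adjusted p = 0.0355) between KO SAMe and KO placebo livers. The probes of Gstk1, a mitochondrial and peroxisomal member, disagreed there, with 0.14 (adjusted p = 0.525) at the brighter and -0.81 (adjusted p = 0.00773) at the other. In low-background arrays 1 of the 12 passed between KO placebo and WT.

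Among 18 measured genes of glutathione synthesis and turnover, 6 were higher and 4 lower in KO placebo livers, against 19.5% and 19.4% of all probes. Gss, glutathione synthetase, changed by -0.67 (adjusted p = 2.24e-04) and Hagh, a glyoxalase that releases glutathione, by -0.95 (adjusted p = 8.37e-06). Abcc3 and Abcc4, exporters of conjugates, rose by 0.72 and 0.65, and the glutathione-degrading enzyme Chac1 by 1.85 (adjusted p = 4.07e-04). Between KO SAMe and KO placebo livers 3 were higher and 1 lower, against 9.5% and 7.67% of all probes. Gss was at 0.55 (adjusted p = 0.0109) and Abcc4 at -0.45 (adjusted p = 0.00561).

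Against 19.5% higher and 19.4% lower of all probes, 8 of 15 measured NRF2 targets outside glutathione metabolism were higher and 1 lower in KO placebo livers. They included Ftl1, ferritin light chain, at 1.25 (adjusted p = 1.03e-06), Hmox1, heme oxygenase, at 0.93 (adjusted p = 7.45e-05) and Nqo1, a quinone reductase, at 0.43 (adjusted p = 0.0059), with Me1, malic enzyme, at -0.67. Of 24 measured CAR and PXR responsive genes 10 were higher and 5 lower, beside the same shares of all probes. Rxra, the partner receptor of both, rose by 1.24 (adjusted p = 6.73e-07). The CAR and PXR list shares Cyp2b9, Cyp2b13 and Cyp3a41a with the female-biased list and Abcc2 with the glutathione list. The counts of these lists are thus not separate. Of 2 genes named after their values were seen, Cyp2b10, the usual CAR marker, rose by 0.97 (adjusted p = 0.00242) and Cyp3a11, the usual PXR marker, changed by -1.11 (adjusted p = 3.62e-04). Between KO SAMe and KO placebo livers Ftl1 changed by -0.78 (adjusted p = 0.00305) and Nqo1 by 0.40 (adjusted p = 0.0434). There 2 of the NRF2 list were higher and 2 lower, against 9.5% and 7.67% of all probes. In low-background arrays 6 of the NRF2 list passed between KO placebo and WT, and 0 between KO SAMe and KO placebo, where 6 of all probes tested did.

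In liver tissue, fewer cells of a type and less RNA per cell cannot be told apart. Markers of pericentral hepatocytes, the zone where many mu class transferases are known to be high, summed to 13830 to 16450 in KO placebo livers. The sum was 10630 to 13930 in WT and 12490 to 14020 in KO SAMe livers, over 11 of 15 markers. Of these, 5 were higher and 1 lower in KO placebo than in WT, against 19.5% and 19.4% of all probes. Their median log2 change was 0.11, and that of 11 periportal markers was 0.15. The periportal sums were 12210 to 19250 in KO placebo, 13230 to 17400 in WT and 16850 to 18140 in KO SAMe livers. Such sums weigh the brightest markers most. Stellate cell and fibroblast markers summed to 1946 to 2826, 1434 to 2131 and 1763 to 2393, with 4 of 9 higher. For bile duct cells, which are known to express Gstp1, 4 of 12 markers were measured, with sums of 145.7 to 205.6, 104.6 to 167.0 and 128.0 to 331.2. Krt19, Epcam and Spp1 had no named probe past the filter, and whether they have dimmer or unnamed probes was not examined. Pancreatic acinar markers, which would mark other tissue, were 4 of 12 measured, with 2 lower in KO placebo than in WT livers and sums that overlapped between groups. The part of these in the transferase changes was not tested.

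**Figure D4:**
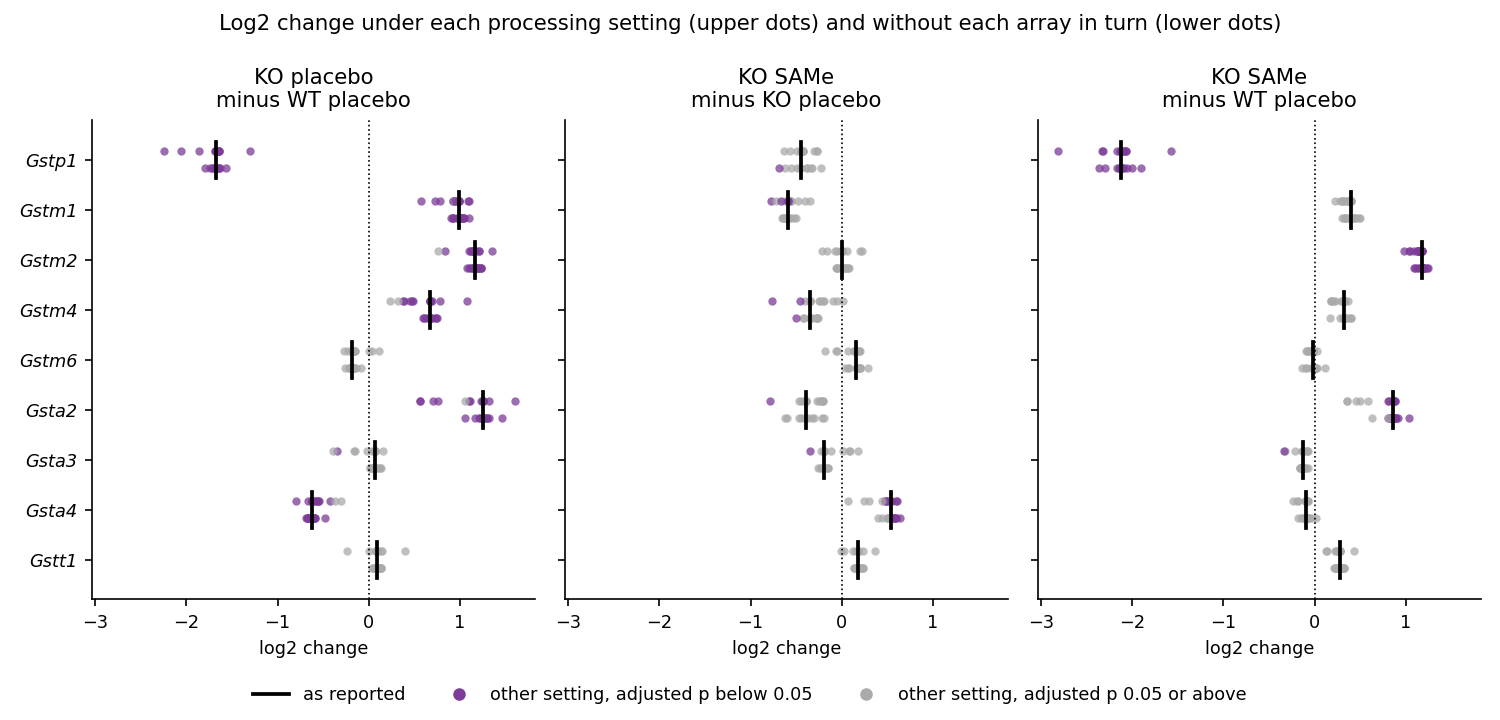
Log2 change (x axis) of the brightest probe of each gene (y axis) in the 3 comparisons. Black bars are the values reported, upper dots are other processing settings and lower dots fits without 1 array, in purple where the adjusted p is below 0.05. Gstp1 stays left of 0 with all dots purple in both comparisons with WT, while the Gstm1 and Gsta4 dots between KO SAMe and KO placebo turn grey in many settings.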

How the data were processed

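Liver RNA of 19 mice was measured on Illumina BeadChips, per the labels' protocols. The authors deposited raw intensity values, neither background corrected nor normalized, and beside each of them a detection p-value. A second deposited table holds log2 values of 17592 probes. By recomputation they are log2 of the quantile-normalized raw intensity, within 0.023, for probes detected at p below 0.01 on any array. What software read the arrays was not given in the sources used here.

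Background was removed by normexp in limma 3.58.1 (R 4.3.3), estimated from the detection p-values with an offset of 16, followed by quantile normalization and log2. Quantile normalization hides a shift of most genes in 1 direction. A probe was kept if 5 or more arrays detected it at p below 0.05, which held for 14295 of 45281. The 3 comparisons came from 1 two-sided limma fit (lmFit, eBayes) over all 19 arrays, with Benjamini-Hochberg adjustment over the kept probes. Gene names came from the platform annotation, which names only probes of the authors' log2 table. A gene was counted by its probe with the highest mean, and a list gene as measured if a named probe of it passed the filter. The genes named were all probes of the members, the 2 genes most correlated with each member, Mat1a, and up to 4 genes of each pathway list by moderated t in each comparison. Eif2s3y, marker genes, Cyp2b10, Cyp3a11 and the smaller calls among the other transferases were named outside that rule. The fit was tested on simulated data that held no effect of background set or ID letter, so that test does not bear on them.

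The members and lists were chosen with earlier results of these data known. Replicates are separate animals, numbered in accession order, and no pair of a group was a copy (r of 0.9618 to 0.9896). Promoter windows are from RefSeq (GRCm38.p6), and no probe sequence or protein was used here. Alternatives covered background correction, normalization, filter, array sets, ID letter, probe choice and arrays left out.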

Additional observations from a re-analysis of the deposited data

Results flagged for a closer look

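In 5 of 51 groups of arrays examined (17 probes in 3 groups), 1 array lay far from the others of its group by Dixon's ratio, and chance flags about 1 in 20 groups. All 5 come from replicate 1 of WT placebo or KO placebo, both high-background arrays. WT placebo replicate 1 read 7.06 at the third Gstm2 probe, where the next liver read 7.69 and the highest 8.22. The same array read 6.83 at the third Gstm6 probe, where the next read 7.42, and 9.36 at the second Gsta3 probe, where the next read 8.89. KO placebo replicate 1 read 7.77 at the first Gstm6 probe, with the next at 8.21, and 6.78 at the third Gstm6 probe, with the next at 7.25. Without WT placebo replicate 1 the third Gstm6 probe passed between KO placebo and WT, at -0.37 (limma adjusted p = 0.0356).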

How the results depend on the processing

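Of 418 repeats of the changes called here, 367 stayed called, 51 lost the call and none turned its direction. Some settings changed only the filter, the groups in the fit or the choice of 1 probe a gene. The log2 change is the same there by construction, so in those repeats its direction could not turn. The count of 6 genes between KO placebo and WT was 4 in low-background arrays (Gstm4 and Gsta4 lost), 1 with the ID letter in the fit, 7 scaled to the filtered probes and 6 elsewhere, also without any 1 array. The 3 calls between KO SAMe and WT ran from 2 to 4, and from 2 to 3 without 1 array. The 2 calls between KO SAMe and KO placebo depended on the settings. The count was 1 under normexp without detection p-values, no background correction, an offset of 50, the authors' log2 values, scaling to the filtered probes, the stricter detection filter, only the groups compared, and the mean of a gene's probes. It was 4 (all lower) with scaling to all probes, and 0 without a filter, with the background set or ID letter in the fit, and in low-background arrays. With array weights Gstm4 passed (-0.45, adjusted p = 0.034) beside Gstm1 and Gsta4. Without 1 array the count was 0 to 1.

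Of all probes tested, the 5564 calls between KO placebo and WT became 2342 in low-background arrays and 63 with the ID letter. The 2455 between KO SAMe and KO placebo became 1160 with the background set, 6 in low-background arrays, 1 with the ID letter, 1598 without a filter, and 4471 or 4402 scaled to all or to the filtered probes. The 2321 between KO SAMe and WT became 1535 without a filter and 1490 without KO SAMe replicate 2. Those scalings moved the median of all tested probes by 0.19 and -0.19 in KO placebo against WT and by -0.22 and 0.15 in KO SAMe against KO placebo. In low-background arrays and with the ID letter in turn, the counts of list genes called between KO placebo and WT went from 8 to 1 and 0 for the other transferases, from 10 to 6 and 0 for glutathione genes, from 9 to 6 and 0 for NRF2 targets, from 15 to 8 and 2 for CAR and PXR genes, from 15 to 8 and 1 for male-biased and from 5 to 4 and 3 for female-biased genes. With the background set the other transferases gave 5. Low-background arrays gave 0 in each of these lists between KO SAMe and KO placebo, and with the background set the count went from 2 to 1 for other transferases, from 4 to 1 for glutathione genes and from 5 to 2 for CAR and PXR genes. The ID letter moved the glutathione genes called between KO SAMe and WT from 5 to 1.

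Directions turned in 61 repeats, all of changes not called here, and the cause was not tested. In KO placebo against WT, Gsta3 was -0.35 (adjusted p = 0.00592) scaled to the filtered probes, -0.16 with the background set, -0.15 in low-background arrays, -0.39 with the ID letter and -0.0252 as the mean of its probes. Its second probe was 0.11 scaled to all probes and 0.0525 with array weights. The 3 Gstm6 probes were 0.11, 0.22 and 0.0657 scaled to all probes. With the ID letter the first was 0.0289 and the third 0.0648, and the second was 0.0098 with the background set. The second Gstm1 probe was -0.13 scaled to the filtered probes and -0.33 with the ID letter, and Gstt1 was -0.24 scaled to the filtered probes. In KO SAMe against KO placebo, with the background set Gsta3 was 0.0861, its second probe 0.50 (adjusted p = 0.0124), Gstm2 -0.22 and Gstm6 -0.055. In low-background arrays Gsta3 was 0.0768, its second probe 0.57, Gstm2 -0.0557 and Gstm4 0.0177. With the ID letter Gsta3 was 0.18, its second probe 0.46 and Gstm6 -0.0662. Scaled to all probes Gstm2 was -0.16, Gstm6 -0.18 and Gstt1 -0.0054, and scaled to the filtered probes Gsta3 was 0.0189 and its second probe 0.0455. The second Gstp1 probe was 0.0539 with the background set and 0.19 in low-background arrays. The third was 0.0032 with an offset of 50, 0.29 scaled to the filtered probes and 0.13 with the background set, and ran from -0.11 to 0.0841 without 1 array. As the mean of its probes Gstm2 was -0.0738, and in KO SAMe against WT Gstm6 was 0.0232. Without 1 array, Gstm2 ran from -0.0624 to 0.0787 and the second Gsta3 probe from -0.18 to 0.0504 between KO SAMe and KO placebo. The second Gsta3 probe ran from -0.20 to 0.0308 between KO placebo and WT, and in KO SAMe against WT Gstm6 ran from -0.14 to 0.11 and Gsta4 from -0.18 to 0.0111. For the remaining probes beside the brightest in the comparisons of KO SAMe livers, 21 further repeats turned direction, all of changes not called, and 1 lost a call.

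The settings for gene lists, for the second Gsta3 probe and for the dimmer Gstp1 and Gstm6 probes in KO SAMe against KO placebo were chosen after seeing the data. No paired analysis was possible because the labels give no replicate numbers that join animals. Dim probes have little signal over background, among them Gsta2, whose call in KO SAMe against WT was lost in all 4 settings with another background correction or offset.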

Other observations

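Markers of other liver cells were measured in the same arrays. Of all probes tested, 19.5% were higher and 19.4% lower in KO placebo than in WT livers. The shares were 9.5% and 7.67% between KO SAMe and KO placebo, and 8.42% and 7.81% between KO SAMe and WT. Of 9 measured Kupffer cell and macrophage markers, 1 was lower in KO placebo than in WT livers and 1 was lower in KO SAMe than in KO placebo livers. Of 10 measured sinusoidal endothelial markers, 2 were higher and 3 lower in KO placebo than in WT livers, and 4 were lower in KO SAMe than in WT livers. Their sum ran from 1657 to 2436 in WT, from 1367 to 2265 in KO placebo and from 982.8 to 1775 in KO SAMe livers. Of 11 measured periportal hepatocyte markers, 3 were higher and 1 lower in KO placebo than in WT livers, and 4 were higher in KO SAMe than in WT livers. Lymphocyte and red blood cell lists had 2 measured markers each, of which 1 lymphocyte marker was lower in KO placebo than in WT livers.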
